A study of Mus musculus with 28 samples.

Results

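Tau was given to primary mouse microglia of the Christchurch genotype, APOE3S/S, and the treated cells were set against untreated cells of the same genotype. The comparison rests on 10 of the 28 libraries of the series: 6 APOE3S/S libraries whose treatment label reads Tau and 4 APOE3S/S libraries whose label reads Control. They are called tau and untreated here, and the labels do not say whether untreated cells received a vehicle. The genotype label of both groups reads Christchurch, written APOE3S/S here, so the mutation is shared and the groups are set apart by treatment label. Whether they also differ in handling is not given. Titles follow 2 naming styles. The SAN title series holds tau libraries 4, 5 and 6 and untreated libraries 1 and 2, and the second title series holds tau libraries 1, 2 and 3 and untreated libraries 3 and 4. No source used here says what separates the naming styles, or gives the form, dose and time of the tau or the age and sex of the mice. Nor do the labels say whether libraries of a group came from separate cultures or animals, so each p-value reflects variation among these 10 samples, part or all of which may be technical. The 12 APOE3 libraries labelled WT (6 tau and 6 untreated) appear only where the tau effect of the genotypes is compared.

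Microglia are the resident macrophages of the brain. They take up extracellular tau, and pattern recognition receptors can then drive NF-kB, which switches on cytokine and chemokine genes. Cytosolic DNA can drive cGAS and STING, whose signal leads through type I interferon to a large set of interferon-stimulated genes. APOE, a lipid carrier, binds TREM2 and heparan sulfate, and the Christchurch substitution lies in the region of APOE that binds heparan sulfate and lipoprotein receptors.

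Library totals were 14.4 M to 27.2 M counts (M for 1e6), with 17949 to 19997 genes detected and 0.936 to 1.79% of counts from mitochondrial transcripts. Levels are counts per 1e6 counts (CPM) on library sizes scaled by TMM, from 3′ tags, so a level counts transcripts and not their length. All 14 markers of microglia and macrophages were detected, with a summed level of 8900 to 10300 CPM in tau and 8510 to 13600 CPM in untreated libraries. Over the 10 libraries these members ranged from Tmem119 at 1.31 to 5.24 CPM and P2ry12 at 12.7 to 26.6 CPM to Csf1r at 2010 to 3130 CPM. Pf4, of the border macrophage and monocyte list, was at 593 to 2990 CPM. The summed level therefore does not tell microglia from other macrophages. Neuronal markers summed to 1.84 to 3.24 CPM in tau and 2.47 to 4.35 CPM in untreated libraries, and the endothelial markers Cldn5 and Emcn and the astrocyte marker Gjb6 had no count in any of the 10. Border macrophage and monocyte markers summed to 3570 to 7310 CPM in tau and 3890 to 7920 CPM in untreated libraries. In RNA from bulk cultures, fewer cells of a type and less RNA per cell cannot be told apart. Apoe is the mouse gene as counted, stood at 8.21 to 19.1 CPM in tau and 11.4 to 19.9 CPM in untreated libraries, and its 3′ tags check nothing of the genotype.

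Before any test, untreated library 2 stood apart from the other 3 untreated libraries in its levels of interferon-stimulated genes. Across 14104 genes its log2 levels correlated at 0.983 to 0.987 with the tau libraries of its own title series and at 0.980 with untreated library 1, the other untreated library of that series. Both share a title series with it, and untreated library 2 was also the shallowest of the 10. Untreated library 3 likewise correlated at 0.988 to 0.989 with the tau libraries of its series and at 0.984 with untreated library 4. That order of correlations was thus not particular to untreated library 2. The levels of interferon-stimulated genes in untreated library 2 were nearly those of treated cells. The mean log2(CPM + 1) of the cytokine and chemokine list was 4.09 in it, between 3.03 in untreated library 1 and 4.83 to 5.24 in SAN tau libraries. Results that rest on it are given with and without it.

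Of 14104 genes tested with edgeR's quasi-likelihood test, with title series as a term, 275 differed between tau and untreated APOE3S/S microglia at a Benjamini-Hochberg adjusted p under 0.05 (1.95%). Among them 183 were higher with tau (1.3% of genes tested) and 92 lower (0.652%), and 127 differed more than 2-fold. In 260 of the 275 the tau libraries lay wholly above or wholly below the untreated ones inside each title series, a pattern that 674 of all genes tested showed upward (4.78%) and 493 downward (3.5%). Without untreated library 2 the test called 527 of 14975 genes (3.52%), 416 higher (2.78%) and 111 lower (0.741%). Of the 275, 227 were called again there and 48 were not, and 299 genes tested in both fits were called only there. Among the other fits with 1 library removed, the count fell to 3 where tau library 2 was left out, and to 39 and 59 where tau library 4 or 6 was. Removing tau library 1 gave 120 calls, tau library 3 gave 153 and untreated library 1 gave 174. Each of the remaining libraries gave 225 to 409 when left out. All 69 called genes named by rule kept their direction in each of these fits.

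**Figure D1:**
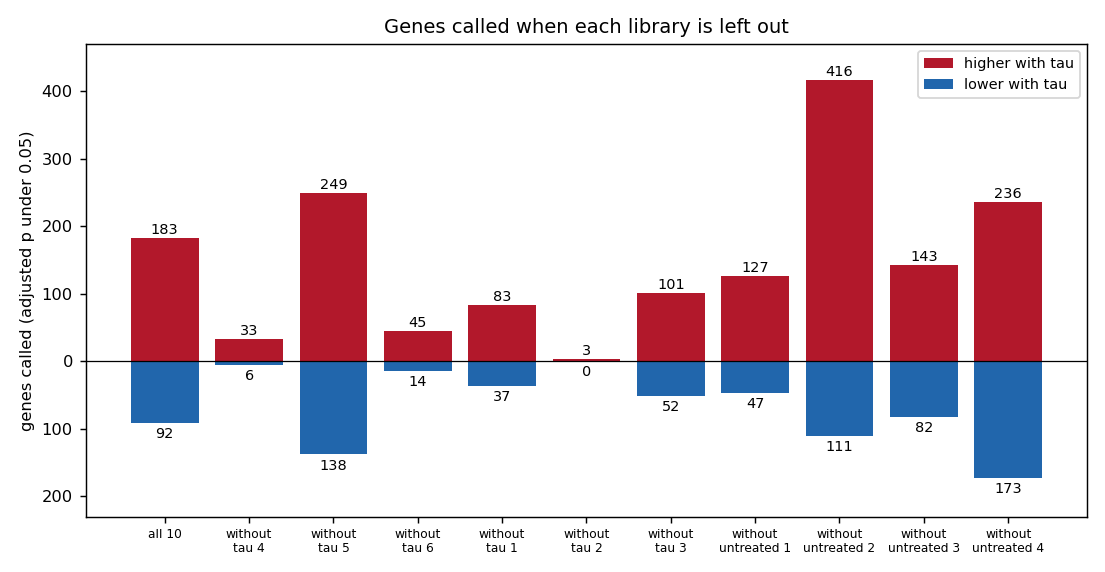
Genes called at an adjusted p under 0.05 (vertical axis, number of genes) with all 10 libraries and with each library left out (horizontal axis); red bars count genes higher with tau and blue bars, drawn downward, genes lower with tau. The bars run from 3 higher and 0 lower without tau library 2 to 416 higher and 111 lower without untreated library 2.

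Cytokine and chemokine genes rose in part. Of 34 tested members of that list 8 rose and none fell, with a median log2 fold change of 0.88 against -0.01 over all genes tested, and without untreated library 2 the count was 10 higher and 1 lower. For this and each list below, the share of all genes tested was 1.3% called higher and 0.652% called lower. Without untreated library 2 those shares were 2.78% and 0.741%. Il1b (chromosome 2:129364570-129371139), the cytokine that inflammasomes release, was at 231, 216 and 427 CPM in tau libraries of the SAN title series, against 15.4 and 37.1 CPM in the untreated ones. In the second title series it was at 22.4, 38.3 and 15.1 CPM with tau, against 4.36 and 4.47 CPM in untreated cells. All tau libraries were thus above the untreated ones of their own title series, while the lowest tau library of the second series lay below untreated library 2. The log2 fold change was 3.02 ± 0.38 (SE; adjusted p = 0.012), and 3.15 without untreated library 2 (adjusted p = 0.0063).

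Il6 (chromosome 5:30013114-30019981), a cytokine of the acute phase, was scarcely counted in untreated cells. It stood at 3.74, 3.83 and 6.95 CPM in SAN tau libraries and 1.41, 1.19 and 0.489 CPM in second-series tau libraries, against 0.16 and 0.206 CPM in SAN and 0.136 and 0.279 CPM in second-series untreated libraries. No tau library overlapped an untreated one, and the log2 fold change was 3.49 ± 0.55 (adjusted p = 0.017). Csf3, the granulocyte growth factor, was rarer still, at 0.113 to 6.7 CPM in tau and 0 to 0.137 CPM in untreated libraries. Il1a rose by 1.28 ± 0.27 (adjusted p = 0.037) and lost its call without untreated library 2 (1.21, adjusted p = 0.073). Tnf (chromosome 17:35199381-35202007), the other early macrophage cytokine, was not called. It was at 44.8, 52.5 and 58 CPM in SAN and 12.8, 17.7 and 13.5 CPM in second-series tau libraries, against 12.1 and 25.2 CPM in SAN and 13.4 and 12.1 CPM in second-series untreated libraries. The groups separated in the SAN title series and overlapped in the second, with a pooled log2 fold change of 0.82 ± 0.27 (adjusted p = 0.14).

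The neutrophil-attracting chemokines Cxcl1, Cxcl2 and Cxcl3 lie in the same stretch of chromosome 5 and rose together. Cxcl3 was at 87.5, 104 and 181 CPM in SAN and 22.3, 34.1 and 10.7 CPM in second-series tau libraries, against 2.87 and 7.42 CPM in SAN and 5.08 and 5.51 CPM in second-series untreated libraries. The groups did not overlap in or across title series, and the log2 fold change was 3.25 ± 0.57 (adjusted p = 0.022). Cxcl1 rose by 2.58 ± 0.40 and Cxcl2 by 1.95 ± 0.32 (adjusted p = 0.017 and 0.018). Ppbp, a further CXC chemokine gene of the same stretch (chromosome 5:90768518-90770063), was at 2.73, 2.69 and 2.84 CPM in SAN tau libraries against 0.904 and 0.619 CPM in SAN untreated ones, and at 24.5, 24.4 and 19.1 CPM in second-series tau libraries against 6.53 and 9.82 CPM in second-series untreated ones. Its level was higher in the second title series in both groups, and tau libraries were above the untreated ones in each series.

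The upstream sequences of 5 of these cytokine genes are shown because each holds a kB core, the letters bound by NF-kB dimers. RefSeq windows of GRCm38.p6, from 250 bases before to 50 after the start, were searched on both strands for 3 motifs. The kB core was GGGA and TTCC with any 2 bases between them, the core of the interferon-stimulated response element (ISRE) was GAAA and GAAA with any 2 bases between them, and the core of the antioxidant response element (ARE) was TGACNNNGC. Capitals mark matches. In Cxcl1, Cxcl2 and Cxcl3 the capitals hold a pair of kB matches, 1 on each strand, shifted by 1 base. In Cxcl10 they hold an ISRE core, a kB core and an ARE core, in that order, the last on the reverse strand. The Cxcl1 window is chr5:90891125-90891244, that of Cxcl2 chr5:90903779-90903898, that of Cxcl3 chr5:90785981-90786100 and that of Il6 chr5:30012994-30013113, all on the plus strand, and that of Cxcl10 is chr5:92348890-92349139 on the minus strand. Each is written 5′ to 3′ and ends at the base before the start.
Cxcl1: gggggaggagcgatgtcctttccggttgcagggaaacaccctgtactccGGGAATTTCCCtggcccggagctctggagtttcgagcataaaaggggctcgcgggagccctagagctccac
Cxcl2: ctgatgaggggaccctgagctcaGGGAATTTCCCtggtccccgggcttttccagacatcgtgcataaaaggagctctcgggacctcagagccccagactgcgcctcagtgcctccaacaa
Cxcl3: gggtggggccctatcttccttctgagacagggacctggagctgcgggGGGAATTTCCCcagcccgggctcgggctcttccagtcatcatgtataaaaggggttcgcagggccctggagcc
Il6: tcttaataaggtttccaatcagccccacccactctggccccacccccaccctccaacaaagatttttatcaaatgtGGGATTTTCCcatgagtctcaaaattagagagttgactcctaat
Cxcl10: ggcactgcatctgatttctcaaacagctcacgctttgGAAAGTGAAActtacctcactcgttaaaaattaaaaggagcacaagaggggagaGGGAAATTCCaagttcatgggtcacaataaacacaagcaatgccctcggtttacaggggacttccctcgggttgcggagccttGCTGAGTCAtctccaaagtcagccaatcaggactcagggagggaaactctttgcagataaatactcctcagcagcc

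A window was found for 10018 of the 14104 genes tested. The kB core was in 157 of these (1.57%), in 6 of 22 cytokine and chemokine windows (27.3%), in 8 of 149 windows of genes higher with tau (5.37%) and in 0 of 71 windows of genes lower with tau. The ISRE core was in 333 windows of all genes (3.32%), in 25 of 40 windows of interferon-stimulated genes (62.5%), in 8 of the 149 (5.37%) and in 2 of the 71 (2.82%). The ARE core was in 1479 windows (14.8%), in 9 of 28 windows of NRF2 targets (32.1%), in 25 of the 149 (16.8%) and in 9 of the 71 (12.7%). A match is a description of letters and not of binding.

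Genes of the NF-kB pathway itself rose with the cytokines. Of 30 tested subunits, adaptors and feedback genes 11 rose and 1 fell (median 0.56), and without untreated library 2 the count was 10 and 1 (median 0.61). Nfkbie (chromosome 17:45555703-45563169), an inhibitor that holds NF-kB in the cytoplasm, was at 79.1, 82.4 and 99.1 CPM in SAN and 24.7, 28 and 19.7 CPM in second-series tau libraries, against 25.1 and 44.9 CPM in SAN and 12.7 and 12.6 CPM in second-series untreated libraries. It rose by 1.13 ± 0.17 (adjusted p = 0.017), with no overlap inside either series. Traf1, an adaptor of TNF receptors, rose by 3.71 ± 0.60 (adjusted p = 0.019), with 0.0907 to 1.65 CPM in untreated libraries, and Birc3, an inhibitor of apoptosis in the same receptor complex, by 0.99 ± 0.16 (adjusted p = 0.02). The precursor genes Nfkb1 and Nfkb2 rose by 0.41 ± 0.08 and 0.72 ± 0.16. The other risers were Tnip3, Tnfaip2, Cflar, Zc3h12a, Sod2 and Traf3, with log2 fold changes of 0.39 to 1.63. Nfkb2 and Sod2 lost their calls without untreated library 2 (adjusted p = 0.051 and 0.078). Cd83, a surface protein of activated antigen-presenting cells, was the member that fell (-0.79 ± 0.14, adjusted p = 0.025).

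Among toll-like receptor and inflammasome genes 3 of 36 rose and none fell, and without untreated library 2 the count was 6 and 0. Tlr2 (chromosome 3:83836272-83841767), a receptor for lipoproteins, was at 718, 717 and 811 CPM in SAN and 392, 465 and 310 CPM in second-series tau libraries, against 267 and 408 CPM in SAN and 198 and 226 CPM in second-series untreated libraries. It rose by 1.01 ± 0.15 (adjusted p = 0.017) and, among the fits with 1 library removed, lost its call in the one without tau library 2. Nlrp3, the sensor of the inflammasome that matures interleukin-1, rose by 0.78 ± 0.14 (adjusted p = 0.022), and Tlr3, the receptor for double-stranded RNA, by 0.95 ± 0.18 (adjusted p = 0.029).

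**Figure D2:**
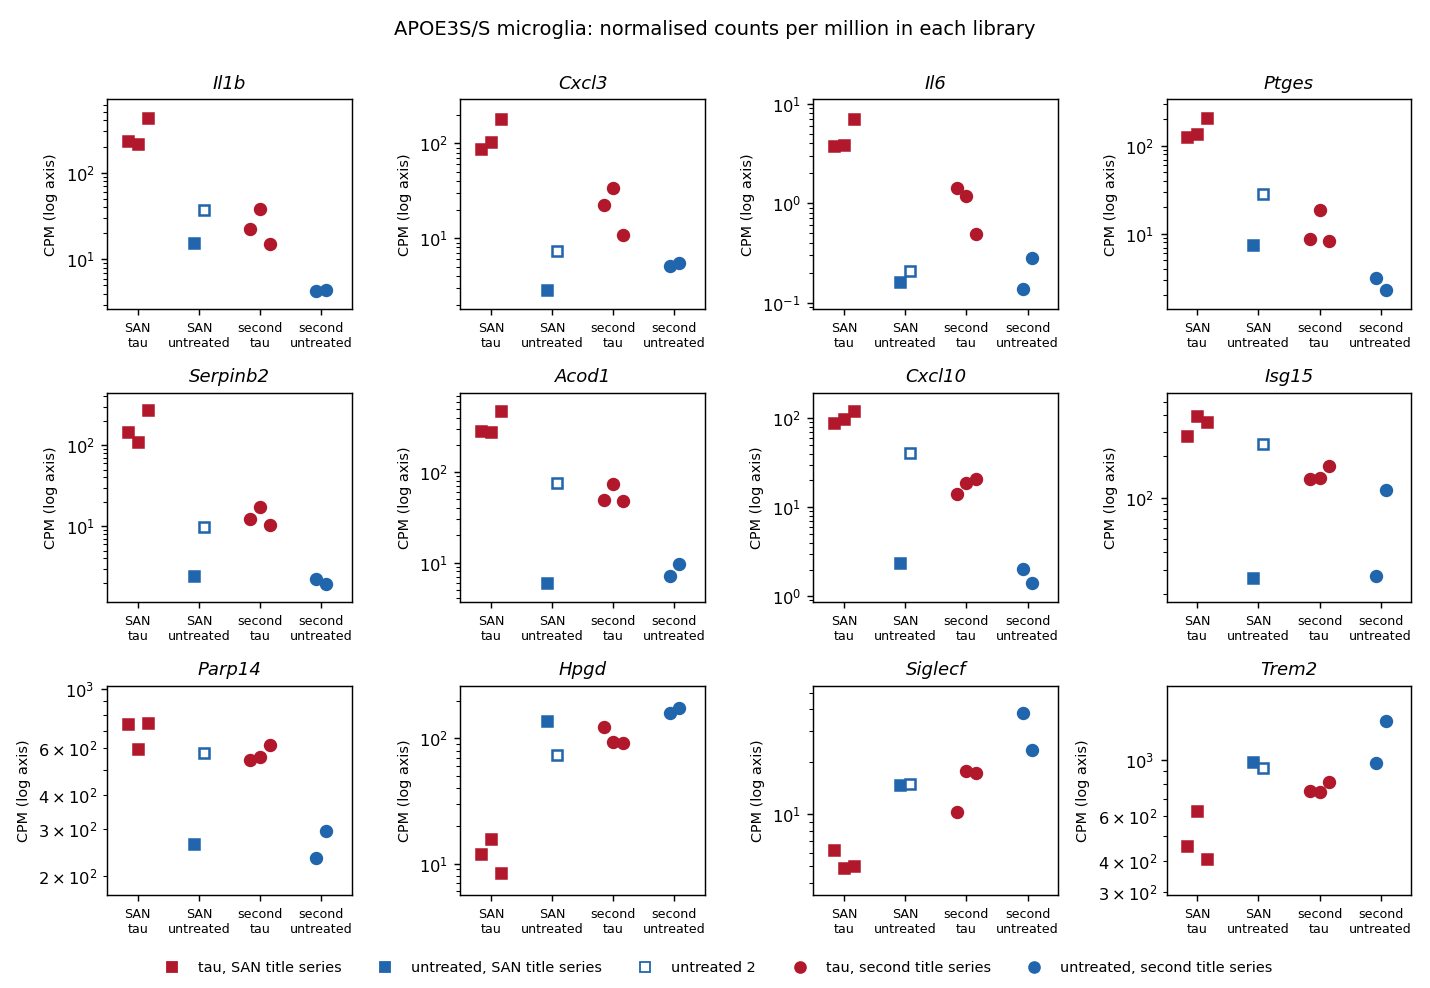
Level of 12 genes in each of the 10 APOE3S/S libraries (vertical axis, CPM on a log axis), with the SAN title series as squares and the second as circles; red is tau, blue untreated, and the open square is untreated library 2. In the panels of Il1b, Cxcl3, Il6, Ptges and Serpinb2 each tau library stands above the untreated libraries of its series, while for Cxcl10, Isg15 and Parp14 untreated library 2 (41, 244 and 578 CPM) stands much nearer the SAN tau libraries than untreated library 1 does (2.39, 25.9 and 263 CPM).

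Genes of prostaglandin metabolism changed in opposite directions, 2 higher and 2 lower of 26, with 4 higher and 2 lower without untreated library 2. Ptgs2 (chromosome 1:150100031-150108227), the inducible cyclooxygenase, was at 19.2, 16.8 and 26.5 CPM in SAN and 8.33, 6.86 and 4.74 CPM in second-series tau libraries, against 2.23 and 2.54 CPM in SAN and 3.22 and 1.48 CPM in second-series untreated libraries. The groups did not overlap, and it rose by 2.28 ± 0.35 (adjusted p = 0.017). Ptges, the synthase that makes prostaglandin E from its product, rose by 2.69 ± 0.41 (adjusted p = 0.017). Hpgd (chromosome 8:56294585-56321043), which degrades prostaglandins, was at 11.9, 15.7 and 8.46 CPM in SAN and 124, 93.8 and 91.5 CPM in second-series tau libraries, against 137 and 73.7 CPM in SAN and 159 and 175 CPM in second-series untreated libraries. It fell by 1.98 on the log2 scale (SE 0.42, adjusted p = 0.039), the largest fall among called genes with a mean of at least 5 CPM, and by 3.13 in the SAN title series alone against 0.68 in the second. Ltc4s, the leukotriene C synthase, fell by 0.93 (SE 0.18, adjusted p = 0.028).

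Enzymes that use arginine or make itaconate gave 4 rises and 1 fall of 20. Acod1 (chromosome 14:103046977-103056573), which makes itaconate in activated macrophages, was at 287, 282 and 471 CPM in SAN and 48.7, 74.1 and 48.1 CPM in second-series tau libraries, against 5.9 and 75.3 CPM in SAN and 7.17 and 9.62 CPM in second-series untreated libraries. It rose by 2.94 ± 0.53 (adjusted p = 0.025) and by 3.65 without untreated library 2, whose value exceeded those of the second-series tau libraries. Nos2, the inducible nitric oxide synthase, rose by 3.77 ± 0.78, Ass1, which resupplies arginine, by 2.01 ± 0.42 (adjusted p = 0.034 each), and Arg2, the mitochondrial arginase, by 1.15 ± 0.18 (adjusted p = 0.017). Nos2 lost its call without untreated library 2 (adjusted p = 0.069). Ckb, creatine kinase of brain type, fell by 0.79 (SE 0.12, adjusted p = 0.017).

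Of 32 genes of glycolysis and HIF-1 targets 2 rose, namely Hif1a (0.92 ± 0.13, adjusted p = 0.016), the oxygen-regulated transcription factor, and Hk2 (0.59 ± 0.09, adjusted p = 0.017), the inducible hexokinase. Of 35 NRF2 targets 3 rose: Nqo1, a quinone reductase, Slc7a11, the cystine transporter, and Gsta3, a glutathione transferase. Nqo1 (chromosome 8:107388225-107403206) was at 23.7, 26 and 25.5 CPM in SAN and 3.72, 6.82 and 4.59 CPM in second-series tau libraries, against 3.72 and 5.29 CPM in SAN and 2.72 and 1.28 CPM in second-series untreated libraries. The groups were apart inside each title series, and its rise was 1.95 ± 0.29 (adjusted p = 0.017). Slc7a11 and Gsta3 lost their calls without untreated library 2 (adjusted p = 0.068 and 0.057). The list's median was 0.74 in the SAN title series alone and -0.04 in the second, a difference that was tested only gene by gene.

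Extracellular proteases and their inhibitors gave 5 rises and 2 falls of 37. Serpinb2 (chromosome 1:107511423-107535478), an inhibitor of plasminogen activators made by activated macrophages, was at 145, 109 and 269 CPM in SAN and 12.1, 17.1 and 10.3 CPM in second-series tau libraries, against 2.45 and 9.9 CPM in SAN and 2.22 and 1.92 CPM in second-series untreated libraries. No tau library overlapped an untreated one, and the log2 fold change of 3.85 ± 0.55 (adjusted p = 0.016) was the largest among called genes with a mean of at least 5 CPM. Mmp14, a membrane-bound matrix protease, rose by 2.15 ± 0.39 (adjusted p = 0.025), and Mmp2, a gelatinase that Mmp14 activates, by 1.59 ± 0.27 (adjusted p = 0.021). Mmp3, a stromelysin, rose by 2.50 ± 0.56 and Thbs1, a matrix protein that restrains proteases, by 1.41 ± 0.31 (adjusted p = 0.046 and 0.043), Mmp3 losing its call without untreated library 2 (adjusted p = 0.094). Plau, the plasminogen activator of the urokinase type, fell by 0.63 (SE 0.14, adjusted p = 0.047), and Serpinb6b, an intracellular protease inhibitor with close copies, by 1.03 (SE 0.22, adjusted p = 0.042). Several matrix proteases are also made by fibroblasts, whose 12 markers summed to 7.24, 4.97 and 8.27 CPM in SAN and 21.8, 18.7 and 39.1 CPM in second-series tau libraries, against 4.52 and 5.64 CPM in SAN and 22.2 and 20 CPM in second-series untreated libraries. Of the 8 fibroblast and mural markers tested 7 had log2 fold changes above 0, against 48.2% of all genes tested, with a median of 0.98. Postn made up much of the summed level, at 0.479 to 11.2 CPM in tau and 0.904 to 16.7 CPM in untreated libraries, and its log2 fold change was -0.46. The collagen gene Col5a1 was at 0.778 to 2.2 CPM in tau and 0.344 to 0.726 CPM in untreated libraries, without overlap but not called (adjusted p = 0.074). Pdgfrb, a receptor of mural cells, was the marker called, at 0.377 to 0.906 CPM in tau and 0.0532 to 0.206 CPM in untreated libraries (2.42 ± 0.47, adjusted p = 0.029). The part of such cells in the protease values was not tested.

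Only 3 genes kept their call in each of the 10 fits that left out 1 library, and they are named because of it. Slc25a37 (chromosome 14:69241848-69285112), an importer of iron into mitochondria, was at 92.8, 85.4 and 99.7 CPM in SAN and 71.6, 80.2 and 63.9 CPM in second-series tau libraries, against 40.6 and 53.3 CPM in SAN and 39.8 and 30.9 CPM in second-series untreated libraries. The groups did not overlap, and it rose by 1.00 ± 0.12, with 0.93 to 1.09 over those fits. Inhba (chromosome 13:16011851-16031621), the subunit of activin A, stood at 3.05 to 12.6 CPM in tau and 0.319 to 1.65 CPM in untreated libraries and rose by 3.20 ± 0.36, with 3.02 to 3.56 over those fits. The third, Ppbp, rose by 1.58 ± 0.17, with 1.45 to 1.80. Each had an adjusted p of 0.0097.

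Among further genes with the largest rises were Tarm1 (3.85 ± 0.77), an activating receptor of myeloid cells, Slc6a12 (2.85 ± 0.48), a transporter of betaine, and the surface proteins H2-M2 (2.54 ± 0.51) and Ly6i (2.41 ± 0.55). Tarm1 lost its call without untreated library 2 (adjusted p = 0.055). It was at 13.5, 16.6 and 26 CPM in SAN tau libraries. In second-series tau libraries it was at 0.471, 1.7 and 1.02 CPM, against 1.37 CPM in untreated library 2. Clec4e (chromosome 6:123281789-123289870), a lectin receptor for damaged cells and mycobacterial lipid, was at 524, 458 and 816 CPM in SAN and 31.9, 55.1 and 21.6 CPM in second-series tau libraries, against 42.2 and 188 CPM in SAN and 7.76 and 5.75 CPM in second-series untreated libraries, and rose by 2.40 ± 0.40 (adjusted p = 0.021). Complement gave 3 rises of 21 and no fall: C3, the central component, rose by 1.38 ± 0.28, Cfb, its partner in the alternative pathway, by 2.30 ± 0.50, and C1s1, a protease of the classical pathway, by 2.61 ± 0.53 (adjusted p = 0.033, 0.04 and 0.033). Without untreated library 2 those values were 1.83, 3.63 and 4.08. C1s1 was at 7.06, 6.05 and 7.97 CPM in SAN tau libraries, against 0.372 and 2.2 CPM in SAN untreated ones. In the second series it was near the floor, at 0.141 to 0.511 CPM with tau and 0 and 0.0399 CPM in untreated libraries. It passed no filter in that series alone. The Ly6 and H2 genes belong to families of similar copies, and how reads were shared among copies is not given in the sources used here.

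Genes lower with tau included receptors and lipid genes of the disease-associated microglia programme, which was described around TREM2. Of 34 tested members 5 fell and 1 (Hif1a) rose, with a median of -0.30 in the 10-library fit and -0.31 without untreated library 2, where 6 fell. Trem2 (chromosome 17:48346401-48354147), the lipid and APOE receptor, was at 458, 631 and 405 CPM in SAN and 755, 750 and 821 CPM in second-series tau libraries, against 983 and 932 CPM in SAN and 969 and 1420 CPM in second-series untreated libraries. The highest tau library stayed below the lowest untreated one. Spp1, which encodes osteopontin, fell by 0.86 (SE 0.18, adjusted p = 0.034), Lpl, lipoprotein lipase, by 0.73 (SE 0.13, adjusted p = 0.025), and Cd9, a tetraspanin, by 0.58 (SE 0.11, adjusted p = 0.027). Mamdc2, a secreted matrix protein, fell by 1.71 (SE 0.33, adjusted p = 0.029). Of 38 genes for lipid handling by LXR and PPAR 3 fell and none rose, Lpl among them. Pparg, the receptor that promotes lipid uptake in macrophages, fell by 1.12 (SE 0.17, adjusted p = 0.017), and Fabp4, a fatty acid carrier that is a PPAR target, by 1.08 (SE 0.22, adjusted p = 0.034).

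Siglec and scavenger receptor genes were split, with 3 higher and 5 lower of 38, and 3 and 3 without untreated library 2. Siglecf (chromosome 7:43351341-43359531), a receptor for sialic acid, was at 6.17, 4.91 and 5.01 CPM in SAN and 10.2, 17.7 and 17.1 CPM in second-series tau libraries, against 14.6 and 14.8 CPM in SAN and 38.1 and 23.5 CPM in second-series untreated libraries. It fell by 1.23 (SE 0.19, adjusted p = 0.017), and Siglece, another inhibitory member, rose by 1.89 ± 0.33 (adjusted p = 0.022). Olr1, a receptor for oxidised lipoprotein, rose by 1.35 ± 0.27 and Scarb1, a lipoprotein receptor, fell by 0.45 (SE 0.09), and neither kept its call without untreated library 2 (adjusted p = 0.056 and 0.064). Clec4e was the third riser. The bridging proteins that tag dying cells for uptake fell: Gas6 by 0.90 (SE 0.20, adjusted p = 0.045), Pros1 by 0.77 (SE 0.13, adjusted p = 0.022) and Mfge8 by 0.70 (SE 0.13, adjusted p = 0.029). Gas6 was no longer called without untreated library 2 (adjusted p = 0.051).

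APOE and tau receptors with heparan sulfate genes, the list closest to the Christchurch site, gave 3 rises of 36 and no fall (median 0.14). Agrn (chromosome 4:156165290-156197488), which encodes the heparan sulfate proteoglycan agrin, was at 210, 160 and 227 CPM in SAN and 72.7, 70.9 and 82.8 CPM in second-series tau libraries, against 56.2 and 133 CPM in SAN and 36.4 and 33 CPM in second-series untreated libraries. It rose by 1.10 ± 0.20 (adjusted p = 0.025) with no overlap inside either series. Sorl1, a sorting receptor that binds APOE, rose by 0.72 ± 0.15 (adjusted p = 0.035), though untreated library 2 at 210 CPM exceeded the lowest SAN tau library at 201 CPM. Tlr2 was the third.

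The homeostatic genes did not move as 1 group, with 2 higher and 2 lower of 28 (median -0.09). Fcrls, an Fc receptor-like gene of microglia, fell by 0.77 (SE 0.12, adjusted p = 0.017). Lpcat2, an enzyme of lipid mediator synthesis, rose by 0.96 ± 0.20 (adjusted p = 0.037). Tmem119, a surface marker of brain microglia, rose by 0.87 ± 0.19 (adjusted p = 0.037) at only 3.44 to 5.24 CPM in tau and 1.31 to 3.35 CPM in untreated libraries. Among other falls, Rnase4 and Ang, overlapping genes of secreted ribonucleases whose reads may not be separable, fell by 1.25 and 1.15, Lsp1, an actin-binding protein of leukocytes, by 1.17, the immediate-early transcription factors Myc and Atf3 by 0.68 and 0.75, and Stmn1, which regulates microtubules in dividing cells, by 0.88 (adjusted p = 0.014 to 0.029 for the 6). Nat8l, which makes N-acetylaspartate, and Ramp1, a partner of the receptor for calcitonin gene-related peptide, fell by 1.08 and 0.99. Of 36 cell cycle genes 2 fell (Stmn1 and Pcna, the sliding clamp of DNA replication) and of 31 immediate-early genes 2 fell (Myc and Atf3), with none rising in either list. Of 20 heat shock genes Hspa1b rose (1.55 ± 0.32) and lost its call without untreated library 2 (adjusted p = 0.054), and of 14 mitochondrially encoded genes mt-Nd6, which lies on the opposite strand to its neighbours, fell by 0.39. Hspa1b has a near-identical copy, and whether counting used strand is not stated, so both values are uncertain. No gene was called among 25 of cholesterol synthesis (median -0.20) or 30 of the unfolded protein response (median 0.16). None of 37 ribosomal protein genes was called, though all 37 log2 fold changes were below 0 (median -0.31), while 48.2% of all genes tested were above 0. The median was -0.10 in the SAN series and -0.50 in the second, whose untreated library 4 had a mean log2(CPM + 1) of 9.49 over these genes against 8.54 to 8.98 in the other 9 libraries. None of 35 nuclear respiratory chain genes was called (median -0.06).

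**Figure D3:**
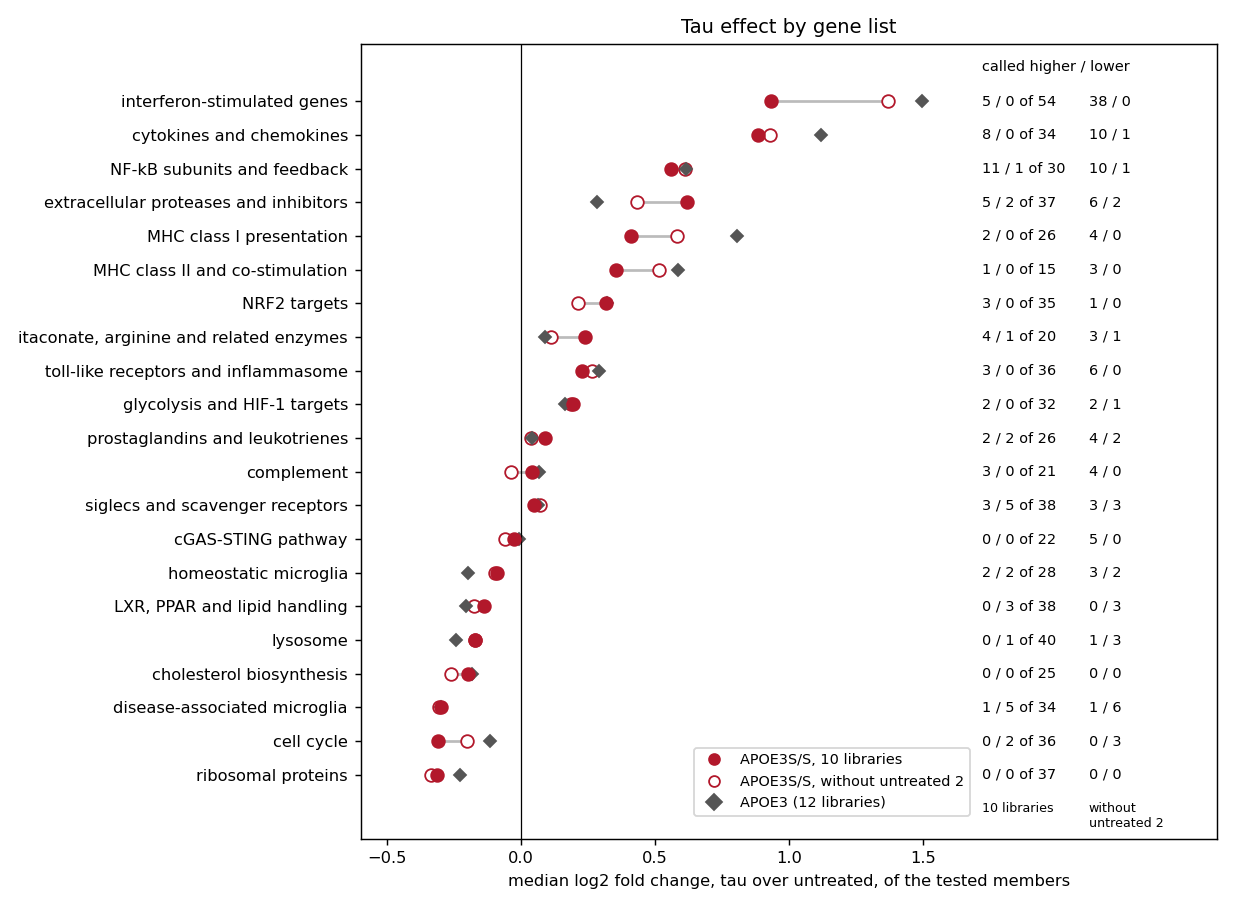
Median log2 fold change of tau over untreated for the tested members of 21 gene lists (horizontal axis); filled circles are APOE3S/S with all 10 libraries, open circles APOE3S/S without untreated library 2 and diamonds the 12 APOE3 libraries, and the figures at right are members called higher and lower. The largest gap between filled and open circles is that of the interferon-stimulated genes (0.93 and 1.37), with 5 and 38 members called higher.

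Interferon-stimulated genes were the list that untreated library 2 changed most. That library was set apart for its levels of these genes, so a larger rise without it follows from the choice. Untreated library 1 is then the only SAN untreated library. Of 54 tested members 5 rose and none fell in the 10-library fit (median 0.93), and 38 rose without that library (median 1.37). The 5 were Gbp7 (1.29 ± 0.26), a guanylate-binding GTPase, Samd9l (0.96 ± 0.20), an antiviral restriction factor, Parp14 (0.92 ± 0.20), an ADP-ribosyltransferase, Eif2ak2 (0.73 ± 0.15), the RNA-activated kinase PKR, and Ddx58 (1.13 ± 0.26), the RNA sensor RIG-I, with adjusted p = 0.033 to 0.047. Gbp7 (chromosome 3:142530342-142550149) was at 199, 122 and 210 CPM in SAN and 144, 140 and 156 CPM in second-series tau libraries, against 34.7 and 107 CPM in SAN and 66 and 56.2 CPM in second-series untreated libraries, with no overlap. The bases before its start (chr3:142530216-142530335, plus strand) are shown because the list's windows so often held an ISRE core, here on the reverse strand in capitals.
Gbp7: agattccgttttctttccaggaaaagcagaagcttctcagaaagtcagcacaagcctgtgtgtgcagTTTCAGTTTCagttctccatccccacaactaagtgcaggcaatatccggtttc

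In 30 of the 54 interferon-stimulated genes the tau libraries lay above the untreated ones in both title series, against 4.78% of all genes tested. The mean log2(CPM + 1) of the list was 8.04, 8.01 and 8.15 in SAN tau libraries against 5.80 and 7.85 in untreated libraries 1 and 2, and 7.22, 7.22 and 7.44 in second-series tau libraries against 5.60 and 6.66 in untreated libraries 3 and 4. Untreated library 2 thus lay 2.05 above its partner and just below the SAN tau libraries, and untreated library 4 also lay above untreated library 3.

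Cxcl10 (chromosome 5:92346638-92348889), a T cell chemokine that both NF-kB and interferon induce with both cores in its window, was at 88.3, 98 and 119 CPM in SAN and 13.9, 18.8 and 20.8 CPM in second-series tau libraries, against 2.39 and 41 CPM in SAN and 2.04 and 1.4 CPM in second-series untreated libraries. Its log2 fold change was 2.70 ± 0.57 (adjusted p = 0.037) with all libraries and 4.14 (adjusted p = 0.0015) without untreated library 2. Isg15 (chromosome 4:156199424-156200818), a ubiquitin-like modifier, was at 280, 391 and 357 CPM in SAN and 137, 139 and 169 CPM in second-series tau libraries, against 25.9 and 244 CPM in SAN and 26.8 and 114 CPM in second-series untreated libraries. All tau libraries were above the untreated ones of their series, yet an untreated library of each series came near them, and Isg15 was not called with all libraries (1.21 ± 0.51, adjusted p = 0.25) or without untreated library 2 (1.85, adjusted p = 0.12). Irf7, the transcription factor that amplifies interferon signals, was at 1190, 1420 and 1410 CPM in SAN tau libraries against 185 and 1220 CPM, and 513, 484 and 478 CPM in second-series tau libraries against 87.8 and 432 CPM in the untreated ones. The lowest SAN tau library lay below untreated library 2, and Irf7 was not called with or without that library (adjusted p = 0.34 and 0.14). Ifnb1, the gene of interferon beta, had 25, 14 and 13 reads in SAN and 1, 5 and 4 reads in second-series tau libraries, against 0 and 4 reads in SAN and 0 and 19 reads in second-series untreated libraries, with the 19 in untreated library 4.

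Antigen presentation rose in few genes with all libraries. Of 26 genes of MHC class I presentation 2 rose (H2-M2 and Nlrc5, the class I transactivator, 0.94 ± 0.19), and without untreated library 2 the count was 4. The median with all libraries was 0.41 and 25 of 26 were above 0, against 48.2% of all genes tested. Of 15 genes of MHC class II and co-stimulation Cd274 (0.88 ± 0.15, adjusted p = 0.022) rose, the gene of the T cell inhibitor PD-L1, and without untreated library 2 the count was 3. It was at 294 to 436 CPM in SAN and 235 to 291 CPM in second-series tau libraries, against 146 and 227 CPM in SAN and 158 and 149 CPM in second-series untreated libraries, with no overlap.

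No member of the cGAS-STING list was called among 22 tested in the 10-library fit (median -0.03); without untreated library 2, 5 rose (median -0.06). Among them were Adar, an RNA deaminase induced by interferon (0.84, adjusted p = 0.0031), and Ikbke, a kinase that activates interferon regulatory factors (0.90, adjusted p = 0.024). Mb21d1, the symbol used for the cGAS gene, was at 33.2, 25.2 and 34.1 CPM in SAN and 21.4, 22.3 and 25 CPM in second-series tau libraries, against 14.4 and 28.3 CPM in SAN and 17.6 and 16.5 CPM in second-series untreated libraries. The SAN groups overlapped through untreated library 2, and the log2 fold change was 0.48 ± 0.17 (adjusted p = 0.16). Tmem173, the symbol used for STING, stood at 0.20 ± 0.13 (adjusted p = 0.45). Without untreated library 2 Mb21d1 was among the genes called, with an adjusted p that rounds to 0.05. Tmem173 was not called there (adjusted p = 0.34).

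**Figure D4:**
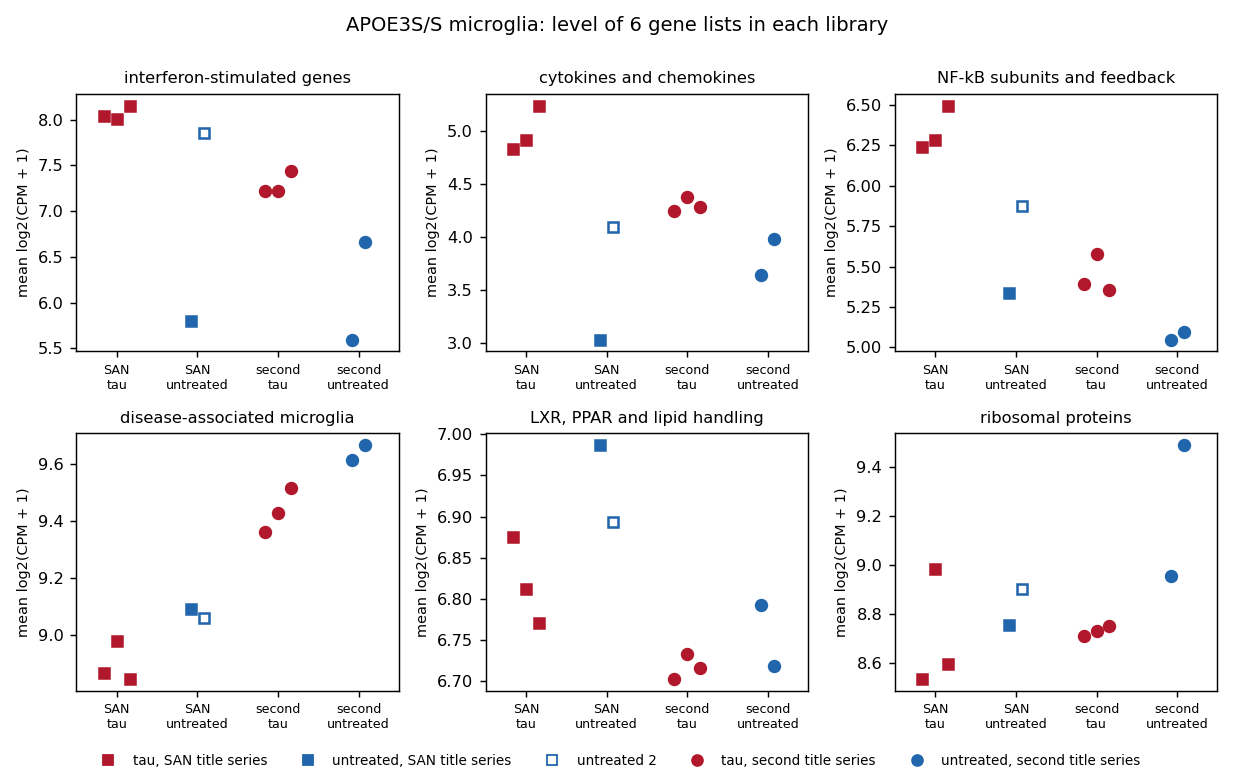
Mean log2(CPM + 1) of 6 gene lists in each APOE3S/S library (vertical axis), with groups by title series along the horizontal axis, tau in red, untreated in blue and untreated library 2 as an open square. For interferon-stimulated genes untreated library 2 stands at 7.85 beside SAN tau libraries at 8.01 to 8.15, while for NF-kB genes it stands at 5.88, between untreated library 1 at 5.34 and SAN tau libraries at 6.24 to 6.50.

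The place of untreated library 2 differed between gene groups. On a scale where untreated library 1 is 0 and the mean of the 3 SAN tau libraries is 1, its median place was 0.75 (quartiles 0.47 and 0.90) over the 258 genes of at least 5 CPM that were called without it and differed at least 2-fold between those ends. For 37 interferon-stimulated genes it was 0.91, with 37 of 37 nearer to tau, for 5 NF-kB genes 0.43, for 5 cytokine genes 0.38 and for 4 prostaglandin genes 0.34. Over genes higher with tau it was 0.80 (218 genes) and over genes lower with tau 0.32 (40 genes). These are descriptions of 1 library with no test, and the genes were chosen from a fit to the other libraries of the same comparison. Monocyte markers gave no uniform order: Ccr2, named after its values were seen, was at 52.4 CPM in untreated library 2, against 12.6 to 20.2 CPM in SAN tau libraries and 13.6 CPM in untreated library 1, whereas Ly6c2 was at 120, 120 and 130 CPM in SAN tau libraries, 72.8 CPM in untreated library 2 and 3.14 CPM in untreated library 1. Of 15 tested border macrophage and monocyte markers 2 rose: Vcan, a matrix proteoglycan (1.71 ± 0.24, adjusted p = 0.015), and Itgal, a leukocyte integrin (0.68 ± 0.14, adjusted p = 0.033). The astrocyte transporter Slc1a2 rose by 2.49 ± 0.53 (adjusted p = 0.037) and lost its call without untreated library 2. With all libraries no oligodendrocyte, neuron, endothelial, granulocyte or lymphocyte marker was called. Without untreated library 2, Ly6c2 (4.53, adjusted p = 0.0069) and the endothelial receptor gene Kdr (0.93, adjusted p = 0.021) were called higher as well. The part of other cells in the tau effect was not tested.

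The title series were also fitted one at a time. The SAN series alone (3 tau against 2 untreated) gave 187 calls of 13134 genes (1.42%) and the second alone (3 against 2) 91 of 13807 (0.659%). Of 261 called genes with a value in both, 261 had the same sign in both and 199 had the larger log2 fold change in the SAN series. They were called on both series together, which favours a shared sign. The test of the difference itself called 0 of 14104 genes (0%), with 1944 at an unadjusted p under 0.05, and DESeq2 called 232 and limma-voom 0. The smallest p-values included Hpgd (second minus SAN 2.43, 95% interval 1.55 to 3.31), Alas1 (-1.78, -2.39 to -1.18), which starts heme synthesis, and Ptgr1 (-1.33, -1.70 to -0.96), a reductase of prostaglandins and an NRF2-type gene, each with an adjusted p of 0.083. Alas1 and Ptgr1, which were not called over both series, had opposite signs in them: the log2 fold change of Alas1 was 1.43 in the SAN series and -0.34 in the second, and that of Ptgr1 was 0.84 and -0.48. Leaving out untreated library 1, 2 or 3 gave calls in the edgeR test of the difference. Each such fit leaves a single untreated library in 1 title series. Those calls cannot be told from traits of that library. For the list of interferon-stimulated genes the medians were 0.84 in the SAN series and 1.11 in the second; for cytokines and chemokines they were 1.36 and 0.41.

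**Figure D5:**
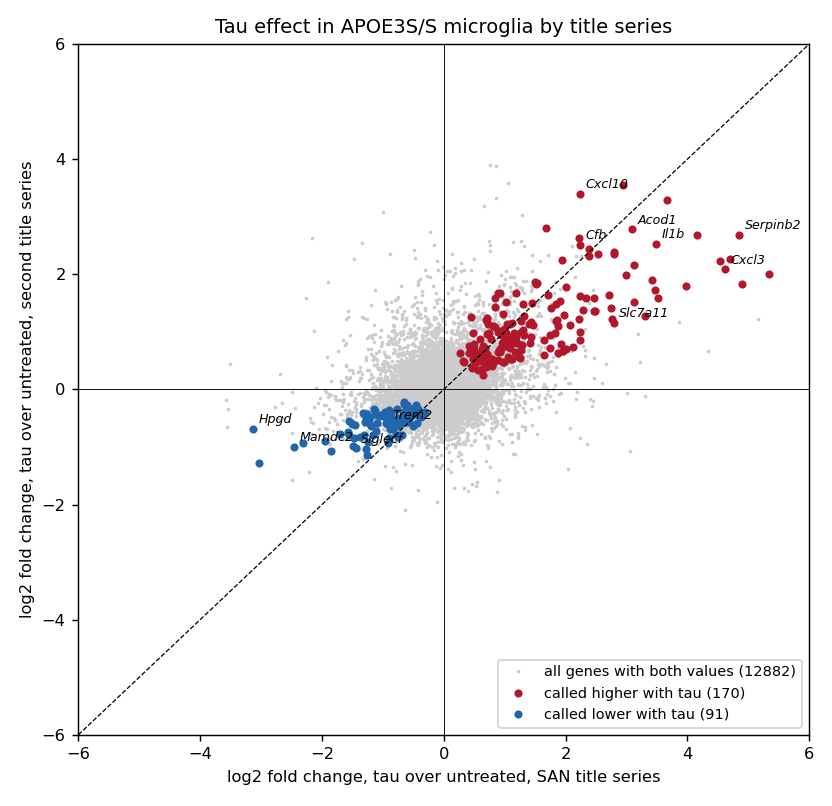
Log2 fold change of tau over untreated in the SAN title series alone (horizontal axis) and in the second title series alone (vertical axis) for 12882 genes, with genes called higher in the 10-library fit in red (170) and lower in blue (91); the dashed line marks equal change. Called genes lie in the upper right and lower left, and 199 of the 261 changed more in the SAN series, as Serpinb2 (4.85 and 2.69), Cxcl3 (4.62 and 2.09) and Hpgd (-3.13 and -0.68) did, and 1 gene lies outside the axes.

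The study asked how the Christchurch mutation alters the response of microglia, so the tau effect in APOE3S/S cells was set beside that in APOE3 cells in a fit of the 22 libraries of both genotypes. There, 455 of 13887 genes were called for tau in APOE3S/S cells (3.28%) and 2063 in APOE3 cells (14.9%), which had 12 libraries against 10. The APOE3S/S count also includes untreated library 2. In the fit of APOE3S/S libraries alone, leaving it out raised the calls from 275 of 14104 genes to 527 of 14975. Of the 275 genes called in the 10-library fit, 273 were tested in APOE3 cells, 253 were also called there and 272 had the same sign, Csf3 being the exception. The difference between the tau effects was called for 0 of 13887 genes (0%) by edgeR, DESeq2 and limma-voom alike, with 284 at an unadjusted p under 0.05 in edgeR. The smallest p-values included Vnn3, a pantetheinase-family gene (APOE3S/S minus APOE3 -0.87, 95% interval -1.36 to -0.39), and Ly6c2 (-3.02, -4.86 to -1.18), neither called after adjustment.

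Interferon-stimulated genes had a median tau effect of 0.93 in APOE3S/S cells, and 53 of 54 rose in APOE3 cells. The difference was below 0 for 54 of 54 members (median -0.65), against 49.8% of all genes tested, and none of the 54 was called. This rested on untreated library 2: without it 41 of 54 differences were below 0 with a median of -0.13, against 49% of all genes tested. In the SAN title series alone, which holds that library, 54 of 54 were below 0 (median -1.37), and in the second series alone 31 of 54 were (median -0.03). Other lists were nearly as one-sided, with differences below 0 for 35 of 37 ribosomal protein genes (median -0.12), 34 of 35 respiratory chain genes (median -0.14), 33 of 36 cell cycle genes (median -0.16) and 24 of 26 genes of MHC class I presentation (median -0.26). Without untreated library 2 those counts were 37, 34, 27 and 16. For Isg15 the difference was -1.29 (95% interval -2.71 to 0.13), for Irf7 -1.13 (-2.34 to 0.09) and for Cxcl10 -1.47 (-3.31 to 0.37). The cytokine list had a median difference of -0.19 with all libraries and -0.05 without untreated library 2, the NF-kB list -0.10 and -0.04, and the disease-associated list 0.07 and 0.04. For Il1b the difference was 0.34 (95% interval -0.91 to 1.60) and for Trem2 0.12 (-0.33 to 0.58), so differences of these sizes could not be told from 0 with these libraries.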

How the data were processed

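The deposited table used gives unnormalised gene counts from QuantSeq 3′ forward libraries of total RNA, per the labels, for 22 untreated and tau libraries. GRCm38 (mm10) and DESeq2 1.38.3 are named, per the submitters' processing notes; how reads were aligned and counted is not given in the sources used here. Of 60976 rows, 6360 without a number and 88 exact repeats were dropped, and 35 symbols with differing rows (136 rows, among them Aldoa and Ddit3) were set aside, leaving 54392, of which 28333 had a count in these 22 libraries; 21 date-like symbols were not used as names. Replicate pairs differed by more than counting noise (mean squared difference 7.7 to 128 times the counting variance over 21 pairs), so none was merged.

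Genes were filtered by filterByExpr by treatment and title series, scaled by TMM and fitted in edgeR 4.0.16 (glmQLFit, glmQLFTest; R 4.3.3) on title series and tau; p-values were adjusted by Benjamini-Hochberg over the whole table, and a gene was called under 0.05. Values written ± after a log2 fold change are standard errors. The difference between title series was tested as an interaction, and the difference between genotypes over 22 libraries, fitted on group and title series. Alternatives were RLE scaling, no filter, a mean of at least 10 CPM, DESeq2 1.42.0, limma-voom (limma 3.58.1), a robust fit, 22 libraries, no title-series term, each title series alone and removal of each library; the scripts were tested on simulated counts.

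Genes were named by rule: the 12 highest and 12 lowest called changes (mean level 5 CPM or more), the 3 members with the smallest p in each of 35 lists, 12 set genes, the 8 smallest p-values of each difference test, list members called in every fit, and 8 genes called only without untreated library 2. Other called members of a list are named to account for its count. Slc25a37, Inhba and Ppbp, called in every fit with 1 library removed, were named outside these rules. The comparison, the gene lists and the rules were chosen with earlier results of these data known. Coordinates are of GENCODE M21 (GRCm38). 1 called gene of these lists is not reported here.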

Additional observations from a re-analysis of the deposited data

Results flagged for a closer look

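Among 34 genes with the largest changes or set for naming, the tau and untreated groups were each screened for a library far from the others, 68 groups in all, of which chance alone marks about 1 in 20. In all, 5 were marked, each in the untreated group. Untreated library 2 was the high one in 4: Cxcl10 at 41 CPM, against 1.4 to 2.39 CPM in the other untreated libraries, Serpinb2 at 9.9 CPM against 1.92 to 2.45 CPM, Slc6a12 at 6.05 CPM against 0.719 to 1.12 CPM, and Tnf at 25.2 CPM against 12.1 to 13.4 CPM. Untreated library 4 was the high one for Trem2, at 1420 CPM against 932 to 983 CPM. Without untreated library 2 the log2 fold change was 4.14 for Cxcl10, 3.85 for Serpinb2, 3.23 for Slc6a12 and 0.83 for Tnf, against 2.70, 3.85, 2.85 and 0.82 with it.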

How the results depend on the processing

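With 275 calls in the 10-library fit, other settings gave 1302 without a filter (25846 genes tested), 962 with DESeq2, 455 with 22 libraries, 432 with limma-voom, 91 in the second title series alone and 0 without a title-series term; leaving out 1 library gave 3 to 527. RLE scaling, the robust fit, the 10 CPM filter and the SAN series alone gave counts within 1.5 times (275, 267, 196 and 187). The difference between title series had 0 calls, 636 without a filter and 232 with DESeq2, and 0 to 499 without 1 library. The difference between genotypes had 0 calls and 149 without a filter (17 higher and 132 lower in APOE3S/S); every other setting run gave 0, leaving out any 1 APOE3S/S library included. No named gene that was called changed sign under any setting that gave it a value. Of the 69 called genes named by rule 63 kept the call without untreated library 2, 0 without tau library 2 and 0 without a title-series term. The cause was not tested. Slc25a37, Inhba and Ppbp, which are not among the 69, kept theirs without tau library 2. No paired analysis was possible because untreated titles carry the numbers 2 and 3 and tau titles 4, 5 and 6, so the groups share none. With 4 untreated libraries, 2 in each title series, the spread of the untreated group rests on very few values, and genes at a few reads, such as Ifnb1 and Csf3, have little precision.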
